A study of Mus musculus with 8 samples.

Results

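The genes described here are the 7 genes of MHC class II antigen presentation whose rows carry the symbols H2-Aa, H2-Ab1, H2-Eb1, Cd74, Ciita, H2-DMa and H2-DMb1. They were chosen by symbol, with no measured value in the rule, but with earlier results of these data known. Counts and medians over the members are therefore given as descriptions. All 7 were present among the 23393 named genes, and all 7 were among the 17415 genes that passed the filter on low counts. Each of them was counted in every library, with at least 62 reads.

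The measurement was RNA sequencing of whole prefrontal cortex lysate from C57BL6/J mice aged 6 to 8 weeks, with 2 libraries in each of 4 groups. The shAdnp mice were injected with an AAV9 virus for a short hairpin RNA against Adnp, and their own controls with an AAV9 virus for GFP (called here GFP controls of the Adnp set). The shPogz mice received a hairpin virus against Pogz, and the GFP controls of the Pogz set were again injected with GFP virus. ADNP and POGZ are chromatin-associated proteins linked to neurodevelopmental disorders, and adeno-associated virus is a common gene transfer vector for the brain. All groups therefore share a virus injection, and no uninjected group was analysed here. The labels do not name the promoter or the target cells of the vectors. The treatment field of all 4 hairpin libraries names a hairpin against ASH1L, whereas the sample titles and the series design name Adnp and Pogz. The groups follow the titles. The series design speaks of 3 knockdown mice, while 2 hairpin libraries per target were analysed here.

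MHC class II molecules present peptides from proteins taken up by a cell to CD4 T cells. H2-Aa and H2-Ab1 encode the alpha and beta chains of the I-A molecule, and H2-Eb1 the beta chain of I-E. Cd74 encodes the invariant chain, which holds the groove of new class II molecules and guides them to endosomes. There the H2-DM molecule, encoded by H2-DMa and H2-DMb1, exchanges the remaining invariant chain fragment for peptides. Ciita encodes the transactivator that is recruited to class II promoters by factors bound to the X and Y boxes, and interferon gamma induces it. In the healthy brain class II is sparse and found mainly on border-associated macrophages, dendritic cells and some microglia, and interferon gamma from T and NK cells raises it in microglia.

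In GRCm38 coordinates the class II chain and H2-DM genes lie together on chromosome 17, with H2-DMa at chr17:34119541-34139101, H2-DMb1 at chr17:34153072-34160230, H2-Ab1 at chr17:34257689-34269419, H2-Aa at chr17:34282744-34287823 and H2-Eb1 at chr17:34305867-34316674. H2-Aa is on the minus strand and the other 4 are on the plus strand. Ciita lies at chr16:10480059-10528418 on the plus strand. Class II promoters are known for an X box and a Y box that lie close together upstream of the start, and the promoters of 3 members are shown because these members varied together across the libraries. RefSeq (GRCm38.p6) windows from 250 bases before to 50 bases after the start were found for 4 of the 7 members. Capitals mark matches on either strand to ACNGATG (letters used here for the X box), GATTGG (Y box) and TGACGTCA (the cyclic AMP response element, CRE). These letters and the spacing counted further on were chosen after the windows had been seen.
H2-Eb1 (chr17:34305617-34305916, plus strand): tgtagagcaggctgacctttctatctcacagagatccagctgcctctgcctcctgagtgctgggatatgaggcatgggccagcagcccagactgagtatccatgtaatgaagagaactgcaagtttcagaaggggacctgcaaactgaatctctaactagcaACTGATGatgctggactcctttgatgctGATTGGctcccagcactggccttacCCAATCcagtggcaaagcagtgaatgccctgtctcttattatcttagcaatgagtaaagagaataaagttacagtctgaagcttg
H2-DMb1 (chr17:34152941-34153240, plus strand): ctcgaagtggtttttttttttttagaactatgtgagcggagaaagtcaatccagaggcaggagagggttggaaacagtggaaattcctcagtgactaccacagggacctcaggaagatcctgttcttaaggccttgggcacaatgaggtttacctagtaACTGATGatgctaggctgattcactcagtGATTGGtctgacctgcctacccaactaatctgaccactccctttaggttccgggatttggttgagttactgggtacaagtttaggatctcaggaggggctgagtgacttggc
H2-Aa (chr17:34287774-34288073, minus strand): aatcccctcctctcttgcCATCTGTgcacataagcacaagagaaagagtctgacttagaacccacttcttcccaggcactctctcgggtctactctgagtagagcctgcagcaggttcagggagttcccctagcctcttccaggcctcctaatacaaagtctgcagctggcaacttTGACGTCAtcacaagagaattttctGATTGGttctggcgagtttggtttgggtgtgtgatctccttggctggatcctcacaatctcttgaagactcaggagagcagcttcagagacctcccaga

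The H2-Eb1 window held an X box match beginning at base -88 and a Y box match at base -60, with a reverse Y box match at base -35. In the H2-DMb1 window the X box match began at -91 and the Y box match at -62. H2-Aa had a Y box match at -49 and a CRE match at -74, with a single match to the reverse X box letters far upstream at -232. The X box letters are a fixed string, so an X box of other letters would be missed in any window. Of the 32851 RefSeq windows of this length, 9.85% held the X box letters, 16.1% the Y box letters and 1.79% the CRE letters. An X box match followed on its strand by a Y box match that began 25 to 40 bases further on was found in 19 windows (0.0578%), among them those of H2-DMb1 and H2-Eb1 and of the related H2-DMb2 and H2-Eb2. H2-DMa has a pair of windows. That at chr17:34125268-34125567 held a Y box match at -199, and that at chr17:34122582-34122881 none of these letters. Both lie inside the annotated span of the gene, and other possible starts were not searched. Motifs for interferon-activated factors were searched as GAAANNGAA (8.56% of windows) and TTCNNNGAA (8.3%), and none of these member windows held either. No binding or methylation data were analysed here.

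The libraries held between 27501722 and 69002749 reads on named genes. The targeted genes were examined first. Adnp had 87.2 and 118 CPM (read counts per library total, scaled by the TMM method) in shAdnp mice against 137 and 111 CPM in their GFP controls, and Pogz had 49.0 and 37.3 CPM in shPogz mice against 54.4 and 53.1 CPM in theirs. The log2 fold changes were -0.27 for Adnp (SE 0.19, adjusted p = 0.768) and -0.32 for Pogz (SE 0.16, adjusted p = 0.667; edgeR quasi-likelihood test), so neither knockdown passed the test and the Adnp values of the groups overlap. Ash1l, the gene named in the treatment field, had 292 and 330 CPM in shAdnp mice against 364 and 301 CPM in their controls. In shPogz mice it had 299 and 273 CPM against 243 and 288 CPM in theirs. Its log2 fold changes were -0.10 and 0.11 (SE 0.14 each, edgeR adjusted p = 0.895 and 0.827). One shAdnp library carried 7.62% of its reads on the ribosomal RNA gene Rn45s, against 0.134% to 0.740% in the other libraries.

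Class II transcripts differed widely between libraries, within groups as well as between them, and were higher in most hairpin libraries than in the GFP libraries of their set. H2-Aa had 102 and 171 CPM in shAdnp mice against 5.13 and 57.3 CPM in their GFP controls, and 120 and 284 CPM in shPogz mice against 59.8 and 112 CPM in theirs. H2-Ab1 had 64.3 and 127 CPM in shAdnp mice against 2.29 and 37.5 CPM in their controls, and 86.8 and 200 CPM in shPogz mice against 33.3 and 83.3 CPM in theirs. For both I-A chains the hairpin and GFP libraries of each set did not overlap, by a small margin in the Pogz set. Hairpin libraries lay above both GFP libraries for 20.4% of all tested genes in the Adnp set and 19% in the Pogz set. The lowest library of both chains was the same GFP control of the Adnp set. H2-Eb1 had 63.7 and 121 CPM in shAdnp mice against 3.58 and 44.6 CPM in their controls, and 96.6 and 208 CPM in shPogz mice against 42.3 and 99.0 CPM in theirs. Its groups were apart in the Adnp set, while in the Pogz set the higher GFP library just passed the lower hairpin library. H2-Eb1 overlaps the antisense gene Gm20513, and no source used here states whether the counting used the strand.

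Cd74, at chr18:60803848-60812652 on the plus strand, had 190 and 303 CPM in shAdnp mice against 7.11 and 105 CPM in their controls, and 256 and 537 CPM in shPogz mice against 115 and 247 CPM in theirs. Again the hairpin libraries were above the GFP libraries within each set, by a small margin in the Pogz set. Ciita had 7.39 and 18.1 CPM in shAdnp mice against 3.47 and 6.80 CPM in their controls, and 13.8 and 28.1 CPM in shPogz mice against 4.81 and 14.3 CPM in theirs. The transactivator gene thus overlapped between groups in the Pogz set, and in the Adnp set the margin between the nearest libraries was narrow. Ciita shares a stretch with Dexi on the opposite strand, which had 16.9 to 25.6 CPM.

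H2-DMa, of the peptide exchange molecule, varied least of the 7 genes. H2-DMa had 23.3 and 31.5 CPM in shAdnp mice against 13.3 and 18.8 CPM in their controls, and 21.6 and 32.2 CPM in shPogz mice against 14.5 and 21.7 CPM in theirs. Its groups were apart in the Adnp set and overlapped slightly in the Pogz set. H2-DMa overlaps Brd2 on the opposite strand, which had 151 to 174 CPM, so without a known strand setting part of its count could belong to either gene. H2-DMb1 had 7.86 and 12.9 CPM in shAdnp mice against 1.01 and 4.33 CPM in their controls, and 6.95 and 16.8 CPM in shPogz mice against 3.64 and 5.77 CPM in theirs. H2-DMb1 was without overlap in both sets, but 22.65% of its 50-base stretches also occur in the neighbouring H2-DMb2, so its count is uncertain.

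**Figure D1:**
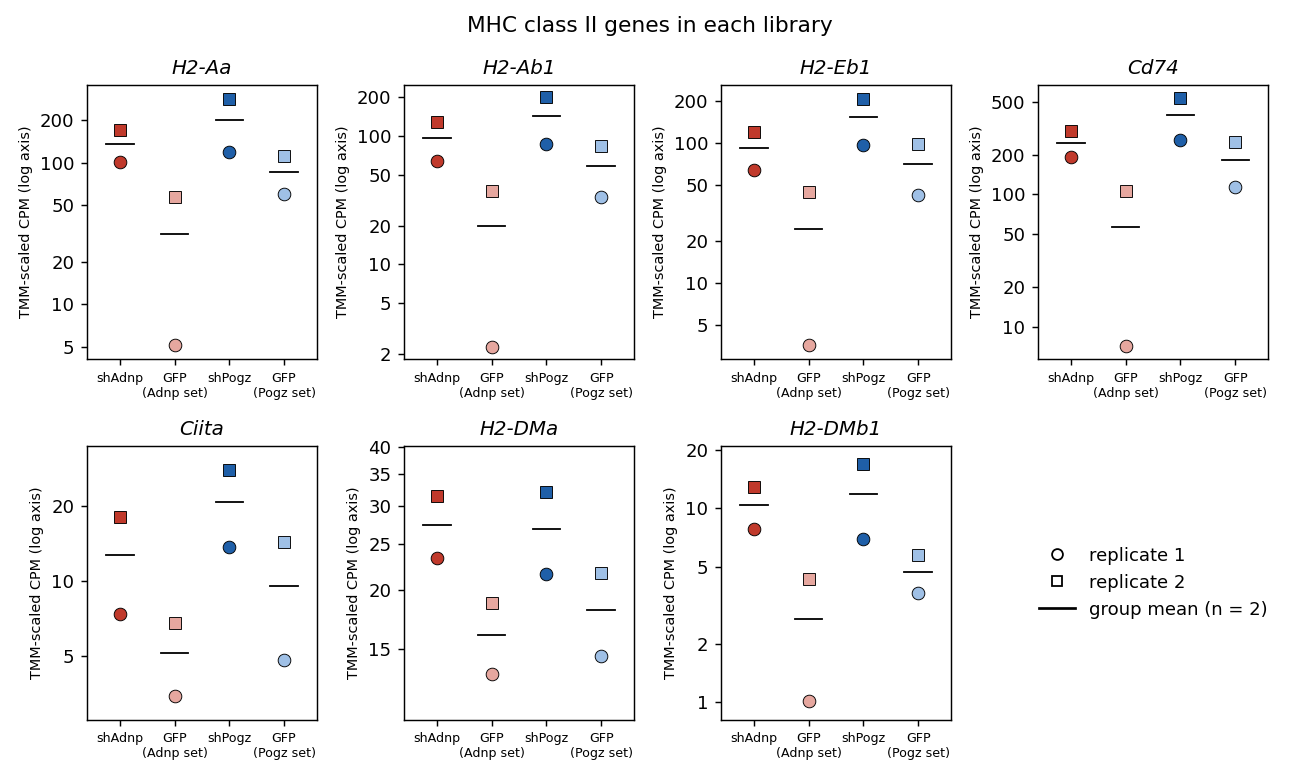
TMM-scaled CPM (log axis) of the 7 class II genes in each library, with groups along the horizontal axis, circles for replicate 1, squares for replicate 2 and a bar at the mean of the 2 libraries of a group. In every panel the lowest point is the same GFP control of the Adnp set and the highest the same shPogz library.

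Replicate 1 of the GFP controls of the Adnp set was the lowest library for all 7 genes, and replicate 2 of shPogz was the highest. From lowest to highest library the range was 87.2-fold for H2-Ab1, 75.6-fold for Cd74, 58.0-fold for H2-Eb1 and 55.3-fold for H2-Aa. It was 16.6-fold for H2-DMb1, 8.10-fold for Ciita and 2.41-fold for H2-DMa. Without that GFP library, the ranges of the 4 chain genes (H2-Aa, H2-Ab1, H2-Eb1 and Cd74) lay between 4.91-fold and 6.00-fold, and that of H2-DMa was 2.22-fold. Inside the GFP controls of the Adnp set, the libraries differed 16.4-fold for H2-Ab1, 14.8-fold for Cd74, 12.5-fold for H2-Eb1 and 11.2-fold for H2-Aa. Such a gap, over 10-fold on CPM plus 0.05, was found for 4 of the 7 members and for 38 of the 17415 tested genes (0.218%). The within-group SD on the log2 scale was 1.37 for H2-Aa, 1.59 for H2-Ab1, 1.45 for H2-Eb1, 1.49 for Cd74, 0.92 for H2-DMb1, 0.87 for Ciita and 0.37 for H2-DMa. The median over all tested genes was 0.176, and the SD of H2-Aa was larger than that of 99.3% of them.

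As group means, Cd74 stood at 396 ± 199 CPM in shPogz mice, 247 ± 79.4 CPM in shAdnp mice, 181 ± 93.8 CPM in GFP controls of the Pogz set and 56.2 ± 69.4 CPM in GFP controls of the Adnp set (SD, n = 2 each). H2-Aa, H2-Ab1, H2-Eb1, Ciita and H2-DMb1 had the same order of group means. For H2-DMa the order of the hairpin groups was turned, with 27.4 ± 5.79 CPM in shAdnp mice and 26.9 ± 7.44 CPM in shPogz mice (SD, n = 2 each). The ranges of the hairpin groups overlapped for all 7 genes. Per kilobase of annotated exon, the mean level over the 8 libraries was 131 CPM for Cd74, 43.6 CPM for H2-Eb1, 30.9 CPM for H2-Ab1 and 30.0 CPM for H2-Aa. On the same scale H2-DMa stood at 6.42 CPM, H2-DMb1 at 4.41 CPM and Ciita at 1.27 CPM.

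The shares of the chain genes among the class II reads were similar in 7 of the 8 libraries. There Cd74 took 38.3% to 42.5% of the reads of the 7 genes, while the share of H2-DMa ran from 2.46% to 6.85%. In replicate 1 of the GFP controls of the Adnp set Cd74 took 19.8%, while H2-DMa took 37.1% and Ciita 9.65%. In this library the chain genes were thus low relative to H2-DMa and Ciita as well as to all reads. H2-DMa and Ciita are also the members that overlap better-expressed genes on the opposite strand, and the part of such reads in their counts was not tested.

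**Figure D2:**
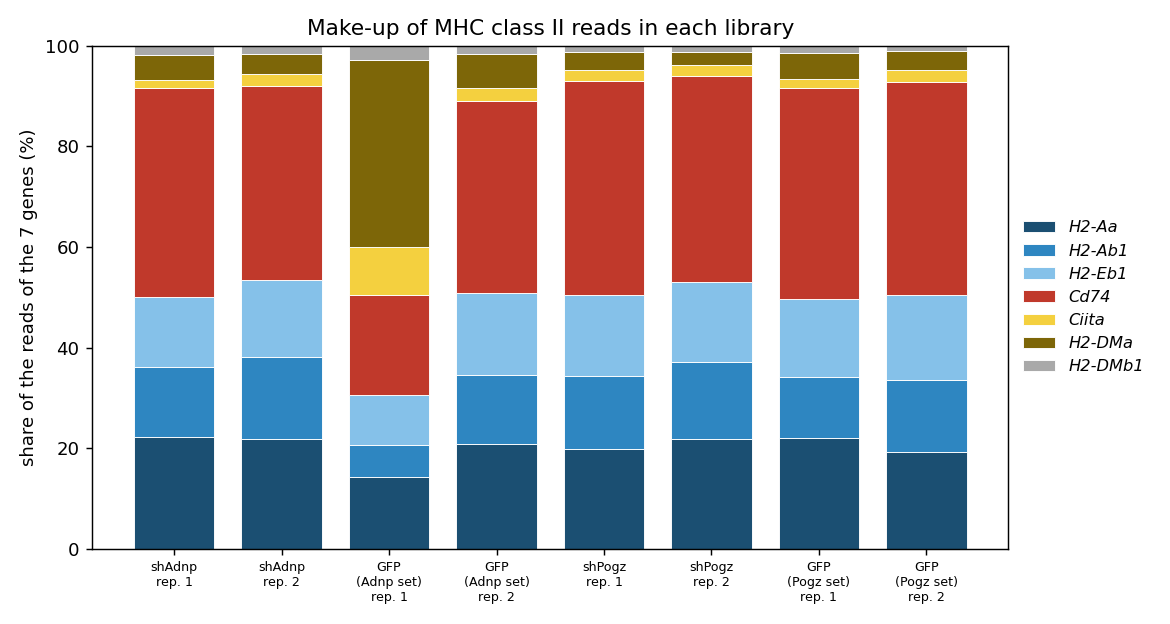
Share (%) of the reads of the 7 class II genes that each gene took, as stacked bars for each of the 8 libraries, hairpin groups left of their GFP controls. Replicate 1 of the GFP controls of the Adnp set stands apart, with 19.8% on Cd74 and 37.1% on H2-DMa.

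The first comparison asked whether class II transcripts differ in shAdnp cortex from its GFP controls. All 7 genes had positive log2 fold changes, with a median of 1.95 against -0.01 over all tested genes. The estimate was 2.27 for H2-Ab1 (SE 1.36), 2.13 for Cd74 (SE 1.30), 2.13 for H2-Aa (SE 1.2) and 1.93 for H2-Eb1 (SE 1.25). For H2-DMb1 it was 1.95 (SE 0.80), for Ciita 1.31 (SE 0.78) and for H2-DMa 0.77 (SE 0.29). None of the 7 passed edgeR's quasi-likelihood test, with adjusted p-values of 0.514 to 0.773 over all tested genes. By that test 0 of 17415 genes were called (percent called 0), while 1456 genes had an unadjusted p below 0.05, DESeq2 called 420 genes (2.61%) and limma-voom 0. No member was called by DESeq2 or limma-voom, and 1 of 7, H2-DMa, was higher at an unadjusted p of 0.0295, a level that 6.67% of all genes reached in that direction. The shAdnp libraries were above both GFP libraries for 7 of 7 members, against 20.4% of all tested genes. Without replicate 1 of the GFP controls the member median was 1.25, and without replicate 2 of them it was 4.68, so the size of the difference rests on which control is used.

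In the shPogz comparison the 7 log2 fold changes were again positive, with a median of 1.13 against -0.02 over all tested genes. H2-DMb1 had 1.32 (SE 0.78), H2-Ab1 1.29 (SE 1.31), H2-Aa 1.23 (SE 1.17), Cd74 1.13 (SE 1.26) and H2-Eb1 1.10 (SE 1.22). Ciita had 1.10 (SE 0.77) and H2-DMa 0.56 (SE 0.29). For the chain genes these differences are about as large as their errors. No member was called by edgeR, with adjusted p-values of 0.667 to 0.809, nor by DESeq2 or limma-voom. Over all genes edgeR and limma-voom called 0 (percent called 0) and DESeq2 called 100 (0.574%), while 1167 had an unadjusted edgeR p below 0.05. At that unadjusted level 0 of 7 members were higher, against 4.05% of all genes. The hairpin libraries lay above both GFP libraries for 4 of 7 members (H2-Aa, H2-Ab1, Cd74 and H2-DMb1), against 19% of all tested genes. The member median was 0.50 without replicate 2 of shPogz, 0.70 without replicate 1 of the GFP controls and 1.83 without their replicate 2.

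**Figure D3:**
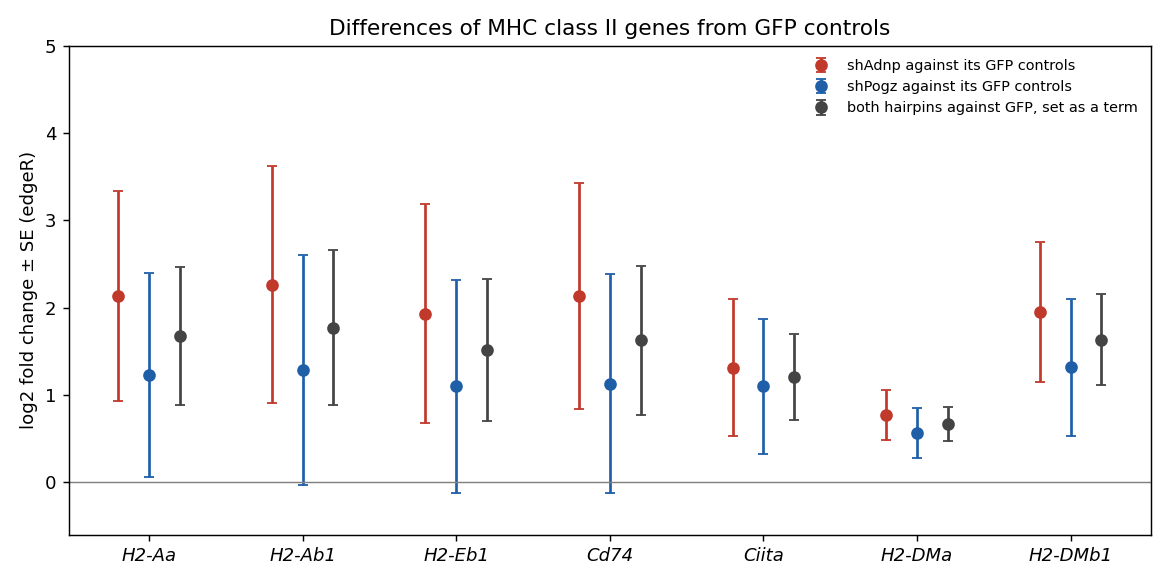
Log2 fold changes with standard errors (edgeR, 8 libraries in one fit) of the 7 class II genes for each hairpin group against the GFP controls of its set, and for both hairpins against GFP with the set as a term. All estimates are above 0, errors are widest for the chain genes, and none passed the adjusted threshold.

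With both hairpins set against GFP and the set as a term (4 against 4 libraries), the member median was 1.63 against -0.02 over all tested genes. H2-Ab1 had a log2 fold change of 1.77 (SE 0.89), H2-Aa 1.68 (SE 0.79), Cd74 1.63 (SE 0.85) and H2-Eb1 1.51 (SE 0.82). H2-DMb1 had 1.63 (SE 0.52, adjusted p = 0.302), Ciita 1.21 (SE 0.50, adjusted p = 0.400) and H2-DMa 0.67 (SE 0.19, adjusted p = 0.228) by edgeR. No gene in the table was called by edgeR or limma-voom (percent called 0), with 2171 at an unadjusted edgeR p below 0.05, and DESeq2 called 711 (4.16%). Of the members 3 of 7, namely Ciita, H2-DMa and H2-DMb1, were higher at that unadjusted level, against 8.84% of all genes. DESeq2 called 1 of 7, H2-DMa, with a log2 fold change of 0.68 and an adjusted p of 0.0110. By edgeR the adjusted p of H2-DMa was 0.0443 without replicate 1 of shPogz, where 556 genes were called, and this gene is the member that overlaps Brd2. H2-Aa, H2-Ab1, H2-Eb1 and Cd74 passed no test in this comparison.

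**Figure D4:**
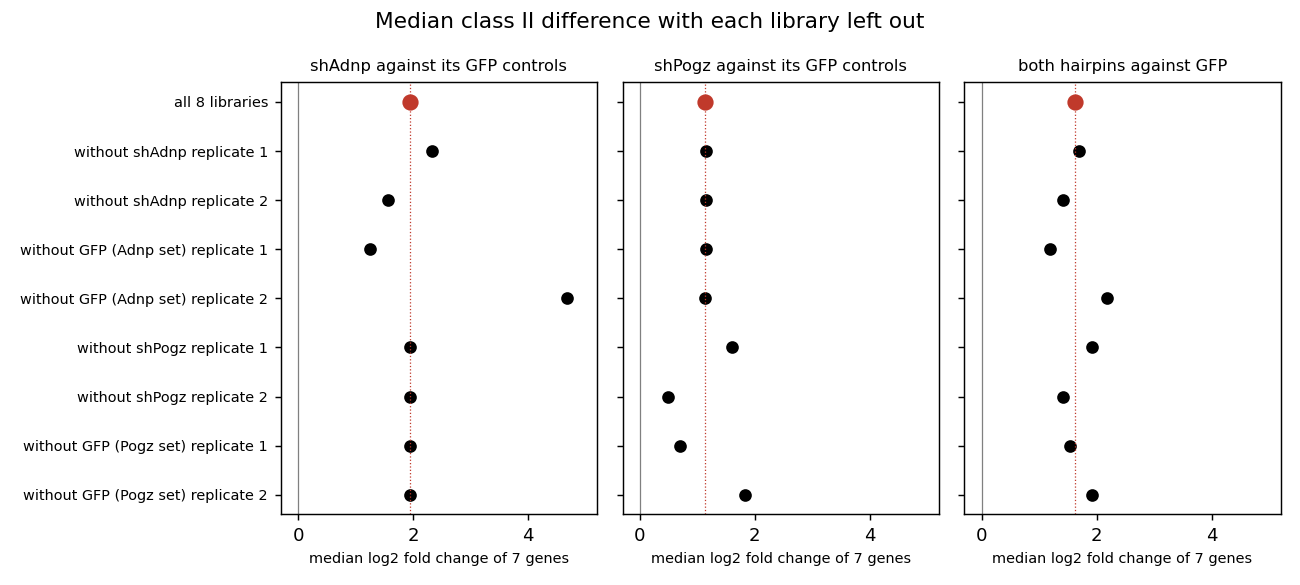
Median log2 fold change of the 7 class II genes with all 8 libraries (large point, dotted line) and with each library left out in turn (small points), for shAdnp and for shPogz against their GFP controls and for both hairpins together. All medians are above 0, and they run from 1.25 to 4.68 for shAdnp, from 0.50 to 1.83 for shPogz and from 1.19 to 2.18 for both.

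The shPogz response minus the shAdnp response was negative for all 7 genes, from -1.0 for Cd74 (SE 1.76) to -0.21 for H2-DMa (SE 0.41), with a median of -0.83. None was called by edgeR (adjusted p 0.982 to 0.992), DESeq2 or limma-voom, and 0 of 7 had an unadjusted p below 0.05, against 3.51% of all genes. Over all genes edgeR and limma-voom called 0 (percent called 0), DESeq2 called 2 (0.0115%), and 612 had an unadjusted edgeR p below 0.05. Without replicate 1 of the GFP controls of the Adnp set, the member median was 0.02. A difference between the responses to the hairpins was therefore not detectable with these libraries.

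The GFP controls of the Pogz set were also set against those of the Adnp set, since both received GFP virus. Their member median was 1.47 against 0.01 over all tested genes. Cd74 had a log2 fold change of 1.69 (SE 1.28), H2-Ab1 1.56 (SE 1.34), H2-Eb1 1.56 (SE 1.24) and H2-Aa 1.47 (SE 1.18), and H2-DMa had 0.18 (SE 0.29). No member was called by edgeR (adjusted p 0.787 to 0.898), against 1 of all tested genes (0.00574%), nor by limma-voom, which also called 1, or by DESeq2, which called 73 (0.419%). The libraries did not overlap for 2 of 7 members, H2-Aa and Cd74, against 21.2% of all genes in that direction. The class II estimates between control groups that received the same kind of virus thus lay between those of the hairpin comparisons by their medians. Without replicate 1 of the GFP controls of the Adnp set the member median was 0.61. Set and any difference in handling between the sets cannot be told apart.

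The other genes of the pathway are given by lists chosen with earlier results of these data known. In each list the count of positive estimates is read against 47.7% of all genes in the shAdnp comparison, 46.4% in the shPogz comparison and 44.7% for both hairpins. No gene of any list passed the adjusted edgeR test in any of these comparisons. Among the class II accessory and assembly genes, 8 of 13 symbols were in the table and all 8 were tested. Their estimates were positive for 8 of 8 in shAdnp (median 1.57) and 7 of 8 in shPogz (median 0.70). Ctss, the protease that trims the invariant chain, had 509 and 300 CPM in shAdnp mice against 76.2 and 168 CPM in their controls, and 319 and 617 CPM in shPogz mice against 213 and 282 CPM in theirs. Its libraries did not overlap in either set, and the log2 fold change for both hairpins was 1.32 (SE 0.39, edgeR adjusted p = 0.281). Ifi30, the lysosomal thiol reductase of antigen processing, had 15.9 and 19.6 CPM in shAdnp mice against 1.98 and 8.31 CPM in their controls, and 19.6 and 45.9 CPM in shPogz mice against 10.9 and 16.7 CPM in theirs. Lgmn, an endosomal protease, had a smaller estimate of 0.64 for both hairpins (SE 0.16, edgeR adjusted p = 0.183).

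H2-Eb1 was read while the gene for its alpha chain partner was not. That gene is listed as H2-Ea-ps, a symbol looked up after the values had been seen. It had 0 counts in all 8 libraries, which allows up to 0.0426 to 0.106 CPM per library at a limit of 3 counts, for counting error only. H2-Eb1 stood between 3.58 and 208 CPM in the same libraries. C57BL/6 mice are known to lack a working I-E alpha chain gene, and that is the strain in the labels.

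Of the class II transcription list 10 of 11 genes were tested, with medians of -0.04 in shAdnp and 0.02 in shPogz and 3 and 7 positive estimates. Creb1, which binds the CRE, had 111 and 98.9 CPM in shAdnp mice against 105 and 111 CPM in their controls, and 105 and 109 CPM in shPogz mice against 103 and 103 CPM in theirs. Nfyb, a subunit of the Y box factor NF-Y, stood between 51.4 and 56.5 CPM in all 8 libraries. Irf8 and Irf4 had the largest estimates of the list by size in both comparisons. Irf8, a factor of microglia, macrophages and dendritic cells, had 31.1 and 33.5 CPM in shAdnp mice against 5.12 and 11 CPM in their controls, and 28.6 and 73.3 CPM in shPogz mice against 14.4 and 25.6 CPM in theirs. Its hairpin libraries were above the GFP libraries in both sets, with log2 fold changes of 2.0 in shAdnp (SE 0.63, edgeR adjusted p = 0.480) and 1.34 in shPogz (SE 0.61, edgeR adjusted p = 0.667). Irf4, a factor of lymphocytes and dendritic cells, had 1.81 and 1.98 CPM in shAdnp mice against 0.719 and 1.27 CPM in their controls, and 5.80 and 3.51 CPM in shPogz mice against 7.18 and 6.86 CPM in theirs. Its log2 fold changes had opposite signs, at 0.92 in shAdnp (SE 0.34, edgeR adjusted p = 0.458) and -0.59 in shPogz (SE 0.32, edgeR adjusted p = 0.667). Between the GFP controls of the Pogz set and those of the Adnp set it was 2.81 (SE 0.34, edgeR adjusted p = 0.0588).

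Of the 14 genes of the interferon gamma axis all were tested, and 12 had positive estimates in shAdnp (median 0.81) and 13 in shPogz (median 1.65). Gbp2, an interferon-induced GTPase, had 45.2 and 115 CPM in shAdnp mice against 5.87 and 36.3 CPM in their controls, and 104 and 330 CPM in shPogz mice against 25.4 and 58.5 CPM in theirs. Its groups were apart in each set, and the log2 fold change for both hairpins was 2.14 (SE 0.75, edgeR adjusted p = 0.350). Jak1, a kinase of the interferon receptors, had an estimate of -0.05 for both hairpins (SE 0.07). Ifng itself, named outside the rule for named genes, had 0.174 and 0.756 CPM (10 and 42 reads) in shAdnp mice against 0 and 0.127 CPM (0 and 8 reads) in their controls. In shPogz mice it had 0.561 and 1.81 CPM (24 and 69 reads) against 0.212 and 0.455 CPM (6 and 32 reads) in theirs. The hairpin libraries were above the GFP libraries in both sets, on small counts.

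Costimulatory and checkpoint genes had positive estimates for 9 of 9 tested genes in both comparisons, with medians of 1.38 in shAdnp and 1.38 in shPogz. Cd86, a costimulatory ligand of antigen-presenting cells, had 14.8 and 11.8 CPM in shAdnp mice against 2.75 and 5.79 CPM in their controls, and 11.2 and 25.3 CPM in shPogz mice against 6.05 and 7.84 CPM in theirs. It was among the better separated genes of the lists, with a log2 fold change of 1.51 for both hairpins (SE 0.31, edgeR adjusted p = 0.150). Class I presentation genes had positive estimates for 11 of 11 in both comparisons, with medians of 1.60 in shAdnp and 1.25 in shPogz. B2m, the light chain of class I molecules, had 405 and 415 CPM in shAdnp mice against 80.9 and 217 CPM in their controls, and 456 and 995 CPM in shPogz mice against 264 and 431 CPM in theirs. Positive estimates were therefore not limited to class II genes.

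The profile most like that of the members was looked for among all tested genes, by the mean absolute difference of centred log2 CPM over the 8 libraries. The nearest 5 genes were H2-Q5 (0.0766), H2-K1 (0.135), H2-Q4 (0.137), Psmb8 (0.194) and Gpr65 (0.206), against a median of 1.01 over all tested genes. The members themselves lay between 0.225 (H2-Aa) and 0.644 (H2-DMa) from their own mean, farther than any of these 5 genes. Nearness to the mean is therefore not a match to single members. H2-K1, H2-Q4 and H2-Q5 are class I genes and Psmb8 encodes a subunit of the immunoproteasome. H2-K1 had 226 and 288 CPM in shAdnp mice against 24.4 and 129 CPM in their controls, and 291 and 645 CPM in shPogz mice against 130 and 264 CPM in theirs. Its lowest and highest libraries were those of the class II genes. The class I genes resemble each other in sequence, and reads could be split among them.

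The tissue is a mixture of cells, and in bulk RNA fewer cells of a type cannot be told apart from less RNA per cell. Markers of the expected tissue were present, with cortical neuron markers summing to 7225 and 7217 CPM in shAdnp mice against 7924 and 7813 CPM in their controls, and to 6466 and 5416 CPM in shPogz mice against 6369 and 6656 CPM in theirs. To set cell types beside class II, the CPM of the chain genes H2-Aa, H2-Ab1, H2-Eb1 and Cd74 were summed in each library, a sum chosen after the values had been seen. It was 421 and 722 CPM in shAdnp mice against 18.1 and 245 CPM in their controls, and 559 and 1229 CPM in shPogz mice against 250 and 542 CPM in theirs. The range from the lowest to the highest library was 67.8-fold.

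The summed T and NK cell markers (11 of 13 in the table) were 14.8 and 36.4 CPM in shAdnp mice against 2.73 and 14.5 CPM in their controls, and 34.6 and 73.8 CPM in shPogz mice against 14.4 and 29.9 CPM in theirs. They spanned 27.0-fold, with the same lowest and highest libraries as the chain genes, and ordered by this sum the libraries kept their chain gene order apart from one exchanged pair of neighbours. In the lowest library the T cell receptor complex genes Cd3d, Cd3e and Cd3g were at 0 counts. Lck and Cd4, which had the highest mean CPM of the list, were read there, with 80 and 66 reads (1.31 and 1.08 CPM). All 11 markers had positive estimates in both comparisons, with medians of 2.19 in shAdnp and 0.99 in shPogz. Monocyte and neutrophil markers (9 of 10 in the table) summed to 10.1 and 25.7 CPM in shAdnp mice against 2.29 and 10.4 CPM in their controls, and to 43.7 and 108 CPM in shPogz mice against 20.1 and 41.3 CPM in theirs. They spanned 47.0-fold, and their positive estimates numbered 6 of 9 in shAdnp and 7 of 9 in shPogz. The part of infiltrating cells in the class II differences was not tested.

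Microglia markers varied far less. Their sum over 12 genes was 1221 and 879 CPM in shAdnp mice against 501 and 590 CPM in their controls, and 785 and 1148 CPM in shPogz mice against 721 and 739 CPM in theirs, a 2.44-fold range. All 12 had positive estimates in shAdnp (median 0.95) and 11 of 12 in shPogz (median 0.31). Csf1r, the growth factor receptor on which microglia depend, had 288 and 232 CPM in shAdnp mice against 118 and 155 CPM in their controls, and 213 and 294 CPM in shPogz mice against 189 and 216 CPM in theirs. The highest microglia sum was in replicate 1 of shAdnp, whose chain gene sum was below that of all other hairpin libraries. Per unit of the microglia sum, the chain sum was 0.344 and 0.821 in shAdnp mice against 0.0361 and 0.415 in their controls, and 0.712 and 1.07 in shPogz mice against 0.347 and 0.733 in theirs. These ratios overlapped between hairpin and GFP libraries in both sets. The part of microglia number or state in the class II differences was not tested.

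Dendritic cell markers (12 of 12 in the table, Cd207 at 0 counts throughout) summed to 98.5 and 80.7 CPM in shAdnp mice against 38.2 and 52.1 CPM in their controls, and to 69.5 and 108 CPM in shPogz mice against 46.3 and 65.1 CPM in theirs. The estimates were positive for 10 of 11 tested in shAdnp (median 0.92) and 9 of 11 in shPogz (median 0.70). Zbtb46, Dpp4 and Flt3 had log2 fold changes of -0.15, 0.14 and 0.33 in shAdnp. In shPogz these were -0.04, 0.49 and -0.006. Itgax, which activated microglia also express, had the highest mean CPM of the list. It made up 58.2 of the 98.5 CPM in replicate 1 of shAdnp. Its values were 58.2 and 20 CPM in shAdnp mice against 0.654 and 4.85 CPM in their controls, and 17.1 and 38.0 CPM in shPogz mice against 6.83 and 12.8 CPM in theirs. Border macrophage markers had medians of 0.71 in shAdnp and 0.04 in shPogz, with 9 and 5 of 10 positive estimates and sums between 41.1 and 81.8 CPM. Summed B cell markers (8 of 10 in the table) were 27.2 and 18.7 CPM in shAdnp mice against 16.2 and 20.4 CPM in their controls, and 27.3 and 31.1 CPM in shPogz mice against 25.8 and 31.9 CPM in theirs. They overlapped in both sets, with 5 and 3 of 8 positive estimates.

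Meninges and fibroblast markers had medians of 0.86 in shAdnp (8 of 8 positive) and 0.25 in shPogz (4 of 8). Endothelial markers had medians of 0.12 (6 of 8) and -0.09 (3 of 8), astrocyte markers 0.13 (6 of 8) and -0.11 (1 of 8), and cortical neuron markers -0.09 (1 of 9) and -0.19 (0 of 9). Gfap, the astrocyte gene that marks reactive astrocytes, had 767 and 393 CPM in shAdnp mice against 93.7 and 191 CPM in their controls, and 296 and 383 CPM in shPogz mice against 318 and 350 CPM in theirs. Its libraries were apart in the Adnp set and overlapped in the Pogz set. The part of glial reaction or dissection in the class II differences was not tested.

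**Figure D5:**
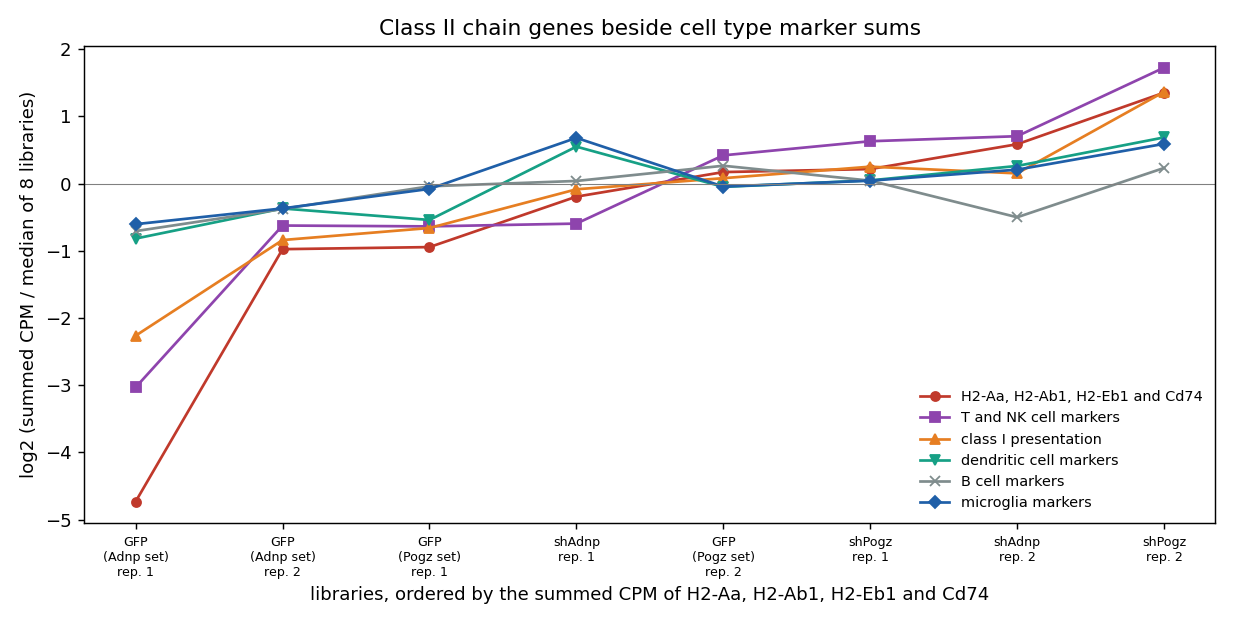
Log2 of the summed CPM of the 4 chain genes and of 5 gene lists, each relative to its own median over the 8 libraries, with libraries ordered by the chain gene sum. T and NK cell markers and class I genes follow the order most closely, with ranges of 27.0-fold and 12.4-fold, while microglia markers range 2.44-fold.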

How the data were processed

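Bulk RNA was extracted from prefrontal cortex, and strand-specific libraries were made after ribosomal RNA depletion from 1 μg of RNA, per the labels' protocols. The submitters' processing notes name STAR, featureCounts, DESeq2 and mm10, while the labels' protocols name TopHat2 and RefSeq mRNAs; no source used here gives versions or the strand setting. The deposited values are raw counts per gene, per the file headers. Protocols speak of biological duplicates. The 25 rows with a bare number in place of a gene name (0.306% to 0.337% of counts) and 2 rows with a blank name and no counts entered neither the library totals nor the fit.

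From the counts, edgeR 4.0.16 (R 4.3.3) fitted 1 quasi-likelihood model to the 8 libraries with 4 group means, or with set and hairpin terms for both hairpins, after TMM scaling and a filter (minimum count 10). P-values were adjusted by Benjamini-Hochberg over 17415 genes, with a threshold of 0.05. SE is the log2 fold change over the square root of F. DESeq2 1.42.0, limma-voom (limma 3.58.1), other filters and scalings, a replicate block and leaving out libraries were alternatives. The scripts were checked on simulated data. GENCODE vM21 gave GRCm38 coordinates and exon lengths. With 2 libraries a group, no replicate pair agreed within counting noise.

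The members and lists were chosen with earlier results of these data known. Genes were named by rule: the members, the 4 genes of each list with the highest mean CPM (of which some are shown and some are not reported here), the 5 nearest profiles, and Adnp and Pogz. Lists covered class II accessory and transcription genes, the interferon gamma axis, costimulation, class I presentation and 10 cell types. H2-Ea-ps, Ifng, Irf4, Cd3d, Cd3e, Brd2, Dexi, H2-DMb2 and Ash1l were named after their values were seen. Intervals for single samples and floors cover counting error only.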

Additional observations from a re-analysis of the deposited data

How the results depend on the processing

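With another scaling, filter or only the compared libraries, all 7 members kept positive estimates in the hairpin comparisons and no member was called. DESeq2 called 420 genes in shAdnp, 100 in shPogz, 2 in the difference of responses, 711 for both hairpins and 73 between GFP groups, and without a low-count filter edgeR called 6 between GFP groups. Leaving out each library gave member medians from 1.25 to 4.68 (shAdnp), 0.50 to 1.83 (shPogz), -3.51 to 0.018 (difference of responses), 1.19 to 2.18 (both hairpins) and 0.61 to 4.07 (between GFP groups). Called genes then numbered 0 to 8, 0 to 153, 0 to 4, 0 to 556 and 0 to 6 in that order of comparisons. The highest counts came without replicate 1 of shAdnp for the first and the third, without replicate 1 of shPogz for the second (153) and the fourth (556), and without replicate 2 of the GFP controls of the Pogz set for the last (6). The cause was not tested.

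Signs turned for several smaller estimates when single libraries were left out. In the difference of responses, the range was -0.81 to 0.85 for Ciita, -0.52 to 0.16 for H2-DMa, -3.58 to 0.055 for H2-Eb1 and -2.03 to 0.059 for H2-DMb1. The highest value of Ciita and H2-DMa came without replicate 2 of the GFP controls of the Pogz set, and that of H2-Eb1 and H2-DMb1 without replicate 1 of the GFP controls of the Adnp set. Between GFP groups the range was -0.11 to 1.49 for Ciita and -0.16 to 0.45 for H2-DMa. Leaving out replicate 1 of the GFP controls of the Adnp set and replicate 2 of shPogz together, a setting added after seeing the data, gave 8 calls in shPogz, 2 for both hairpins and 3 between GFP groups, with H2-DMa at -0.047 between GFP groups.

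Replicate numbers are shared between groups. Over all tested genes, the deviations of same-numbered libraries correlated at -0.0085 in the Adnp set and 0.047 in the Pogz set. These values show no pairing over all genes, but with 2 libraries a group they cannot decide whether the numbers pair the samples. With the replicate block, edgeR called 175 genes in shAdnp, 31 in shPogz, 0 in the difference of responses, 405 for both hairpins and 18 between GFP groups. Ciita, H2-DMa and H2-DMb1 were then called in shAdnp (adjusted p 0.0290, 0.0458 and 0.0367) and for both hairpins (0.00283, 0.00763 and 0.0260), and the chain genes were not. The library numbered 2 was the higher one for all 7 members in all 4 groups (28 of 28), against 48.9% to 57.4% of all tested genes in a group. The 28 come from 7 genes in the same 4 library pairs and are not separate observations. The share of all genes that were higher in all 4 groups at once is not given here. With 2 libraries a group and within-group SDs above 1 on the log2 scale for the chain genes, differences of the size seen did not pass the test.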
